A study of Capra hircus with 9 samples.

Results

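The 9 genes described here encode the receptors through which the uterus reads ovarian steroids, glucocorticoid and oxytocin, the pair of enzymes that switch glucocorticoid on and off, and a co-chaperone of the steroid receptors: ESR1, ESR2, PGR, PGRMC1, NR3C1, OXTR, HSD11B1, HSD11B2 and FKBP5. They were chosen by exact symbol in the count table, where each has 1 row; all 9 of the 9 listed symbols were found among 25671 gene rows. The tissue was uterus taken from Liaoning Cashmere goats, a fibre breed, at day 6, day 16 and day 19, with 3 libraries per day and no other treatment or genotype named. The labels place these days around implantation but do not say from which event they are counted. Nor do they say whether each library is a different animal, so the p-values below reflect only how far these libraries spread, part of which may be technical. Poly(A) RNA was sequenced on an Ion Proton, and the table describes its ESR1 row as a truncated oestrogen receptor alpha.

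Steroid receptors are proteins that bind a hormone inside the cell and then bind DNA as transcription factors. In the ruminant uterus, oestrogen acting through ESR1 raises its own receptor, PGR and OXTR, and progesterone restrains them. Oxytocin binding to OXTR sets off the prostaglandin pulses that end the life of the corpus luteum, and interferon tau from the conceptus is known to hold down ESR1 and OXTR in the uterine lining. Cortisol is regenerated from inert cortisone by HSD11B1 and inactivated by HSD11B2, so the pair sets how much active hormone reaches NR3C1 in a cell.

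The libraries held 8712751 to 11074693 counts each. Day 19 replicate 1 stood apart from the other libraries of its day: over 16098 tested genes its Spearman's rho was 0.894 with replicate 2 and 0.897 with replicate 3, which correlated at 0.983 with each other, whereas it was 0.945 to 0.963 with those of day 16. These correlations run across genes, which are not replicates. The 75 ribosomal protein genes held 2.42% of its counts, 6.61% and 5.64% of those of replicates 2 and 3, and 3.64% to 4.34% in the libraries of days 6 and 16. Results that rest on day 19, or on the estimate of spread that all days share, are therefore given with and without that library. The labels name uterus, endometrial epithelium and testis in different fields. Of 10 testis germ cell markers 8 were in the table, 4 of these had no count in any library, and the list summed to at most 2.52 CPM (a gene's counts per 1000000 counts of the library). Epithelial markers summed to 640 to 1381 CPM and smooth muscle markers to 6282 to 31351 CPM, so muscle markers were counted in every library.

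ESR1, the main oestrogen receptor of the uterus, was lower at each later day. Expression is given as CPM after TMM scaling (trimmed mean of M-values), which makes libraries comparable for 1 gene but does not correct for transcript length. ESR1 stood at 805, 736 and 715 CPM in replicates 1 to 3 of day 6, at 283, 403 and 268 CPM at day 16, and at 228, 111 and 163 CPM at day 19. The day 6 libraries were the highest, the day 19 libraries the lowest, and no 2 days overlapped. Day 6 averaged 752 ± 47.4 CPM, day 16 averaged 318 ± 73.8 CPM and day 19 averaged 167 ± 58.5 CPM (SD, n = 3 each). ESR1 fell by 1.24 on the log2 scale from day 6 to day 16 (SE 0.28, adjusted p = 0.0244), and was 4.49-fold lower at day 19 than at day 6 (log2 fold change -2.17, SE 0.29, adjusted p = 0.0011). Here and below a gene is called where edgeR's quasi-likelihood test gave it a p under 0.05 after Benjamini-Hochberg adjustment across every tested gene.

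The step from day 16 to day 19, a log2 fold change of -0.92 (SE 0.28) for ESR1, did not pass with all 9 libraries (adjusted p = 0.107) and passed without day 19 replicate 1 (-1.20, adjusted p = 0.00226). The call between day 6 and day 16 was lost without 1 library of either day, at adjusted p-values of 0.0827, 0.0729 and 0.0756 without day 6 replicates 1, 2 and 3 and of 0.105 and 0.101 without day 16 replicates 1 and 3. The call between day 6 and day 19 held without each of the 9 libraries in turn, with log2 fold changes of -2.44 to -1.94. In these bulk samples fewer cells that carry a transcript and less of it per cell cannot be told apart. Summed stromal fibroblast markers, for cells that carry ESR1 in the uterus, spanned 25173 to 26322 CPM on day 6, 15629 to 19820 CPM on day 16 and 16571 to 23707 CPM on day 19, and the median log2 fold change of the 10 markers was -0.14, 0.22 and -0.18 for day 16 against 6, day 19 against 16 and day 19 against 6; epithelial markers summed to 640 to 698, 1216 to 1294 and 867 to 1381 CPM. Their part in the ESR1 result was not tested.

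**Figure D1:**
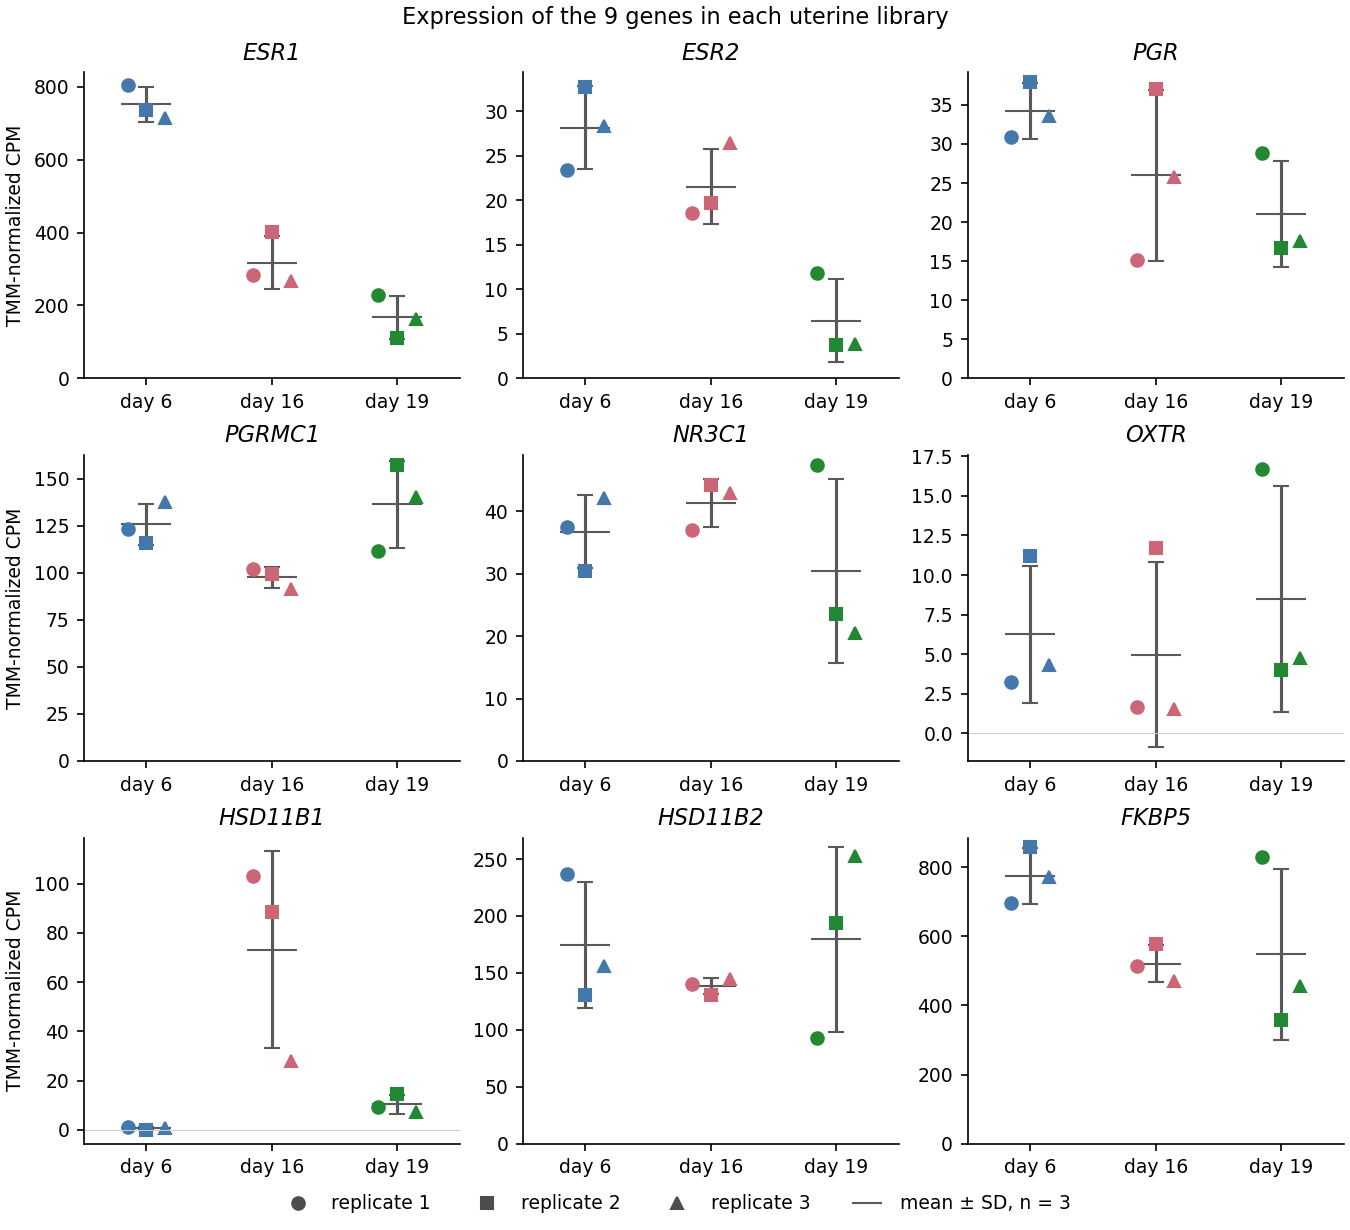
TMM-normalized CPM (vertical axis, linear, a separate scale per gene) of each of the 9 genes in the 9 libraries by day; symbols mark replicates 1 to 3, horizontal bars the mean and vertical bars the SD of 3 libraries. ESR1 falls from 752 to 167 CPM with no overlap between days, HSD11B1 peaks at day 16, and day 19 replicate 1 (circle) stands apart from the other day 19 libraries for ESR2, NR3C1, OXTR, HSD11B2 and FKBP5.

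ESR2, the second oestrogen receptor, which binds the same DNA element as ESR1, was lower at day 19 but not detectably so at day 16. Its values were 23.4, 32.7 and 28.4 CPM at day 6, 18.5, 19.7 and 26.4 CPM at day 16, and 11.9, 3.69 and 3.91 CPM at day 19. Days 6 and 16 overlapped, and every day 19 library was below every library of the earlier days. From day 6 to day 19 ESR2 fell by 2.11 on the log2 scale (SE 0.43, adjusted p = 0.00811; log2 fold change -2.87 without day 19 replicate 1). From day 16 to day 19 the change was -1.73 (SE 0.43, adjusted p = 0.072), and it passed without day 19 replicate 1 at -2.49 (adjusted p = 8.81e-05). Between days 6 and 16 it was -0.38 (SE 0.40, adjusted p = 0.698). Replicate 1 held 3.12 times the mean of the other day 19 libraries, so the size of the day 19 change depends on that library and its direction does not.

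The balance of the pair of oestrogen receptors was read as the share of ESR2 in the counts of both genes within each library, which no scaling between libraries can alter; it is not corrected for length. ESR2 made up 2.82%, 4.26% and 3.82% of these counts at day 6, 6.14%, 4.67% and 8.98% at day 16, and 4.94%, 3.21% and 2.34% at day 19. The 95% Wilson interval was 2.5% to 3.19% in the lowest day 6 library and 8.05% to 10.02% in the highest day 16 library; such intervals cover counting error only. The share was highest at day 16, at 6.60% ± 2.19, while day 6 had 3.63% ± 0.737 and day 19 had 3.50% ± 1.32 (SD, n = 3 each). All day 16 libraries exceeded all day 6 libraries, and day 19 overlapped both. The exact two-sided permutation test gave p = 0.1 for day 16 against day 6, the smallest that 3 against 3 libraries can give, 0.2 for day 19 against day 16 and 1.0 for day 19 against day 6; adjusted over the 6 comparisons of shares these were 0.15, 0.24 and 1.0, so none passed.

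PGR, the nuclear progesterone receptor and a classical target of ESR1, differed less. It stood at 30.9, 38.0 and 33.6 CPM at day 6, 15.2, 37.0 and 25.8 CPM at day 16, and 28.8, 16.7 and 17.6 CPM at day 19. Day 16 held the lowest value of all libraries and one just under the highest, and overlapped both other days, while day 19 lay below day 6. No comparison passed with 9 libraries. The log2 fold change was -0.40 (SE 0.33, adjusted p = 0.595) from day 6 to day 16, -0.30 (SE 0.33, adjusted p = 0.574) from day 16 to day 19 and -0.70 (SE 0.33, adjusted p = 0.152) from day 6 to day 19. With day 19 replicate 1 left out PGR was lower at day 19 than at day 6, at -0.98 (adjusted p = 0.025).

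PGRMC1, a haem-binding membrane protein linked to non-classical progesterone responses, had its lowest values at day 16. The day 6 libraries held 123, 116 and 138 CPM, the day 16 libraries 102, 99.4 and 91.3 CPM, and the day 19 libraries 112, 157 and 140 CPM. Day 16 did not overlap either other day, and days 6 and 19 overlapped. The differences were small and did not pass with 9 libraries, at log2 fold changes of -0.36 (SE 0.17, adjusted p = 0.267) from day 6 to day 16 and 0.48 (SE 0.17, adjusted p = 0.141) from day 16 to day 19. With day 19 replicate 1 left out both passed, at -0.36 (adjusted p = 0.0408) and 0.62 (adjusted p = 0.00263). Its paralog PGRMC2, named after its values were seen, passed in no comparison (40.5 to 55.2 CPM over the 9 libraries).

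NR3C1, the glucocorticoid receptor, was level across days 6 and 16, with 37.4, 30.5 and 42.1 CPM and 37.0, 44.2 and 42.8 CPM. At day 19 it split by library, with 47.4 CPM in replicate 1 and 23.5 and 20.4 CPM in replicates 2 and 3. Replicate 1 was the highest of all 9 libraries for this gene and the other day 19 libraries were the lowest. With all libraries no comparison passed (adjusted p of 0.377 to 0.844). Without replicate 1 NR3C1 was lower at day 19 than at day 16 by a log2 fold change of -0.90 (adjusted p = 0.00258) and than at day 6 by -0.73 (adjusted p = 0.00579). The day 19 result for this receptor thus rests on whether that library is counted.

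OXTR, the oxytocin receptor, was scarce and varied more within days than between them. It stood at 3.25, 11.2 and 4.29 CPM at day 6, 1.68, 11.7 and 1.53 CPM at day 16, and 16.7, 3.99 and 4.76 CPM at day 19, from 16 to 172 counts per library. In each day 1 library stood far above the other ones: replicate 2 at days 6 and 16, and replicate 1 at day 19. All pairs of days overlapped, and adjusted p-values were 0.583 to 0.901 with standard errors of 0.86 to 0.88 on the log2 scale. A difference within that error was not detectable here. The sign of the change also moved: between days 16 and 19 it was 0.78 with all libraries and -0.15 without day 19 replicate 1. Smooth muscle, which carries OXTR in the uterine wall, had summed markers of 6282, 22930 and 18153 CPM in replicates 1 to 3 of day 6, 14398, 15552 and 15909 CPM at day 16, and 18836, 19425 and 31351 CPM at day 19. The library with the most OXTR had the highest marker sum at day 6 and not at day 16 or day 19. Abundant markers weigh most in the sum, and single markers were split. At day 19 replicate 1 was highest for SYNPO2 (781 CPM), PLN (119 CPM), MYOCD (78.1 CPM) and LMOD1 (275 CPM), and not for the other muscle markers. At day 16 replicate 2 was highest for SYNPO2 (468 CPM) and LMOD1 (203 CPM), and not for the other ones. The part of muscle content in the OXTR values was not tested.

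HSD11B1, the enzyme that makes active cortisol from cortisone, showed the largest change of the 9 genes. Its counts at day 6 were 13, 0 and 9, or 1.21, 0 and 0.877 CPM; the count of 0 allows up to 0.309 CPM. It reached 103, 88.4 and 28.0 CPM at day 16 and stood at 9.42, 14.6 and 7.09 CPM at day 19. The 3 days did not overlap: every day 16 library was above every day 19 library, and these were above every day 6 library. Day 16 replicate 3 was well below replicates 1 and 2, so the height of the peak varied among libraries.

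The log2 fold change of HSD11B1 was 6.67 (SE 0.81, adjusted p = 0.00109) from day 6 to day 16, or 102-fold, and 3.85 (SE 0.77, adjusted p = 0.00757) from day 6 to day 19, or 14.4-fold. Both calls held without each library in turn, with folds of 69.3 to 160 and of 9.83 to 22.4. The lowest came without day 6 replicate 2, the library with 0 counts, and the highest without day 6 replicate 1, which holds 13 of the 22 day 6 counts. Summed epithelial markers were also higher on day 16 than on day 6, as given above, with 2 of 8 called higher. So was 1 of 8 leukocyte markers, where 8.86% of all tested genes were called. At day 19 against day 6, 3 of 8 leukocyte markers were called higher (399 to 542 CPM summed on day 6, 633 to 773 CPM on day 19). Of 9 endothelial markers 2 were lower (908 to 1143 and 719 to 867 CPM). Of 8 epithelial markers 2 were higher and 1 lower, and of 10 smooth muscle markers 2 were higher. Over all tested genes 22.9% were called there, and a count near that share is no result about a cell type. The part of these markers in the HSD11B1 result was not tested. The drop from day 16 to day 19, with a log2 fold change of -2.82 (SE 0.64), missed the threshold with 9 libraries (adjusted p = 0.0612). It passed without day 19 replicate 1 (-2.73, adjusted p = 0.0169) and in DESeq2 (adjusted p = 0.000257), and missed it in edgeR without any other single library, with adjusted p up to 0.189. Day 19 replicate 1 lay between the other day 19 libraries for this gene, and without it the log2 fold change itself moved little.

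HSD11B2, which inactivates cortisol, stood at 237, 131 and 156 CPM at day 6, 140, 130 and 144 CPM at day 16, and 92.5, 193 and 253 CPM at day 19. The days overlapped in every pair, and day 19 replicate 1 was the lowest of the 9 libraries. No comparison passed with 9 libraries: the log2 fold change was -0.34 (SE 0.35, adjusted p = 0.689) from day 6 to day 16, 0.38 (SE 0.35, adjusted p = 0.502) from day 16 to day 19 and 0.04 (SE 0.34, adjusted p = 0.941) from day 6 to day 19. With day 19 replicate 1 left out HSD11B2 was higher at day 19 than at day 16, at 0.70 (adjusted p = 0.0361).

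The share of HSD11B1 in the counts of both enzymes put the pair on a scale that does not depend on library size. At day 6 it was 0.507%, 0% and 0.559%, where the 0 of 1269 counts allows a share of up to 0.236% by the floor of 3 counts (the Wilson interval drawn in the plot of shares reaches 0.302%). At day 16 it was 42.4%, 40.4% and 16.3%, and at day 19 it was 9.25%, 7.01% and 2.73%. The counts of the pair thus came almost wholly from the inactivating enzyme at day 6, and the activating enzyme held its largest share in each of the day 16 libraries. The means were 0.355% ± 0.309, 33.0% ± 14.5 and 6.33% ± 3.31 (SD, n = 3 each), and no 2 days overlapped. Each of the 3 exact two-sided permutation tests gave p = 0.1, the smallest the design allows (0.15 adjusted over the 6 comparisons of shares), so none could pass on this measure. H6PD, which supplies HSD11B1 with its cofactor in the endoplasmic reticulum, was named after its values were seen. It held 149 to 165 CPM on day 6 and 157 to 177 CPM on day 16. At day 19 it held 170 CPM in replicate 1 and 120 and 110 CPM in replicates 2 and 3, which were below every earlier library. H6PD passed in no comparison in edgeR with 9 libraries (adjusted p of 0.316 to 0.875).

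**Figure D2:**
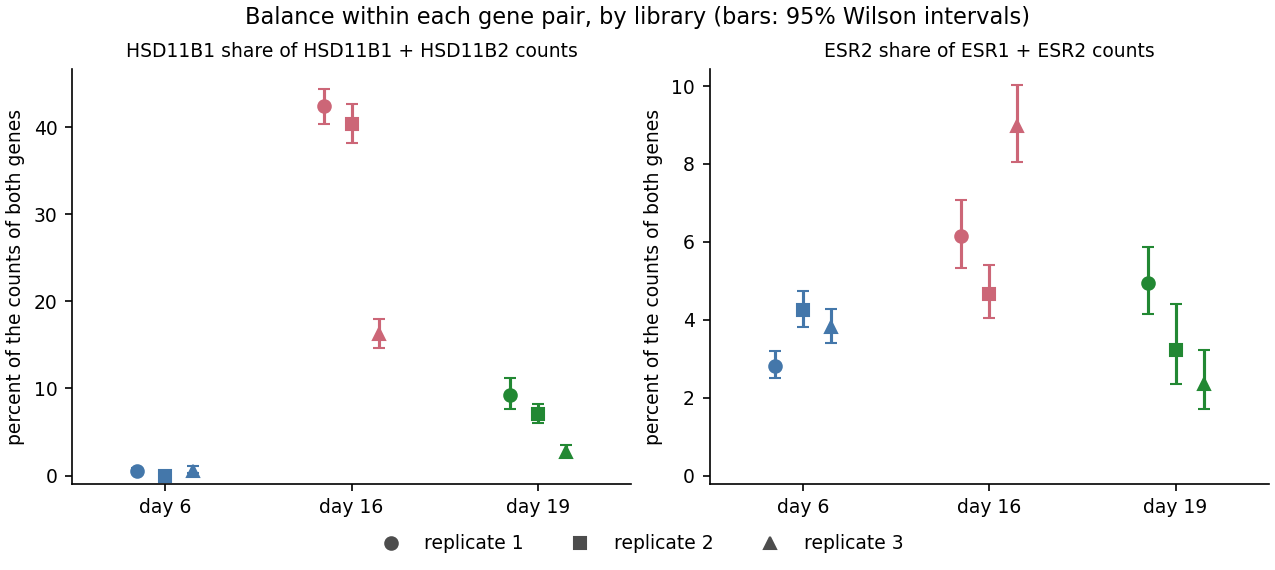
Percent of the counts of a gene pair that belong to HSD11B1 (left, of HSD11B1 and HSD11B2) and to ESR2 (right, of ESR1 and ESR2), per library and day; symbols mark replicates and bars are 95% Wilson intervals for counting error. HSD11B1 holds 16.3% to 42.4% at day 16 and at most 0.559% at day 6, while the ESR2 share stays between 2.34% and 8.98%.

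FKBP5, a co-chaperone that lowers the hormone affinity of the glucocorticoid and progesterone receptors and is itself induced by both, was abundant at all days. Its values were 695, 857 and 772 CPM at day 6, 514, 577 and 471 CPM at day 16, and 828, 359 and 455 CPM at day 19. Day 16 lay wholly below day 6, while day 19 overlapped both because replicate 1 held 2.04 times the mean of the other day 19 libraries. With 9 libraries the log2 fold change was -0.57 (SE 0.30, adjusted p = 0.33) from day 6 to day 16, 0.07 (SE 0.30, adjusted p = 0.895) from day 16 to day 19 and -0.50 (SE 0.30, adjusted p = 0.246) from day 6 to day 19. With day 19 replicate 1 left out FKBP5 was lower at both later days than at day 6, at -0.57 (adjusted p = 0.0218) and -0.92 (adjusted p = 0.00142). The first of these also passed in edgeR with only the libraries of days 6 and 16, at -0.56 (adjusted p = 0.024). FKBP5 was called higher in no comparison, and its relation to HSD11B1 was not tested.

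Across the 9 genes, 2 were called between day 6 and day 16 (ESR1 lower, HSD11B1 higher), against 8.86% of all genes tested. Between day 16 and day 19 edgeR called 0 of 9, against 1.2% of all genes; for 4 of the 9 (ESR1, ESR2, PGRMC1 and HSD11B1) the p before adjustment was under 0.05, and 3 (ESR1, ESR2 and HSD11B1, all lower) were called by DESeq2, against 10.5% of its tested genes. Between day 6 and day 19, 3 were called (ESR1 and ESR2 lower, HSD11B1 higher), against 22.9%. The test for any difference among the days called ESR1, ESR2 and HSD11B1, against 19.6%. In DESeq2 the counts were 2 of 9 between days 6 and 16 (background 12.4%), 3 between days 6 and 19 (27%) and 3 for any difference (27.7%). In each comparison the values of 4 of the 9 genes did not overlap between the days, where 38.7% of tested genes did not overlap between days 6 and 16, 23.9% between days 16 and 19 and 38.5% between days 6 and 19. The median log2 fold change of the 9 genes was -0.36, -0.30 and -0.27 in the order of these comparisons, beside -0.000273, 0.01 and 0.02 over all tested genes. The comparisons share libraries and are not independent of each other.

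Without day 19 replicate 1 more of the 9 genes passed, as did more genes overall. The counts became 4 between days 6 and 16 (background 20.4%), 6 between days 16 and 19 (44.7%), 6 between days 6 and 19 (54.2%) and 6 for any difference (59.1%). The genes called at day 16 against day 6 were then ESR1, PGRMC1 and FKBP5, lower, and HSD11B1, higher. The genes called at day 19 against day 16 were then ESR1, ESR2, NR3C1 and HSD11B1, lower, and PGRMC1 and HSD11B2, higher; against day 6 they were ESR1, ESR2, PGR, NR3C1 and FKBP5, lower, and HSD11B1, higher. Replicate 1 differed by more than 2-fold from the mean of replicates 2 and 3 for 5 of the 9 genes, against 35.9% of all tested genes. It was higher for OXTR (3.82 times), ESR2, NR3C1 and FKBP5, and lower for HSD11B2, where the other libraries averaged 2.41 times its level. For HSD11B1 the ratio was 0.87.

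**Figure D3:**
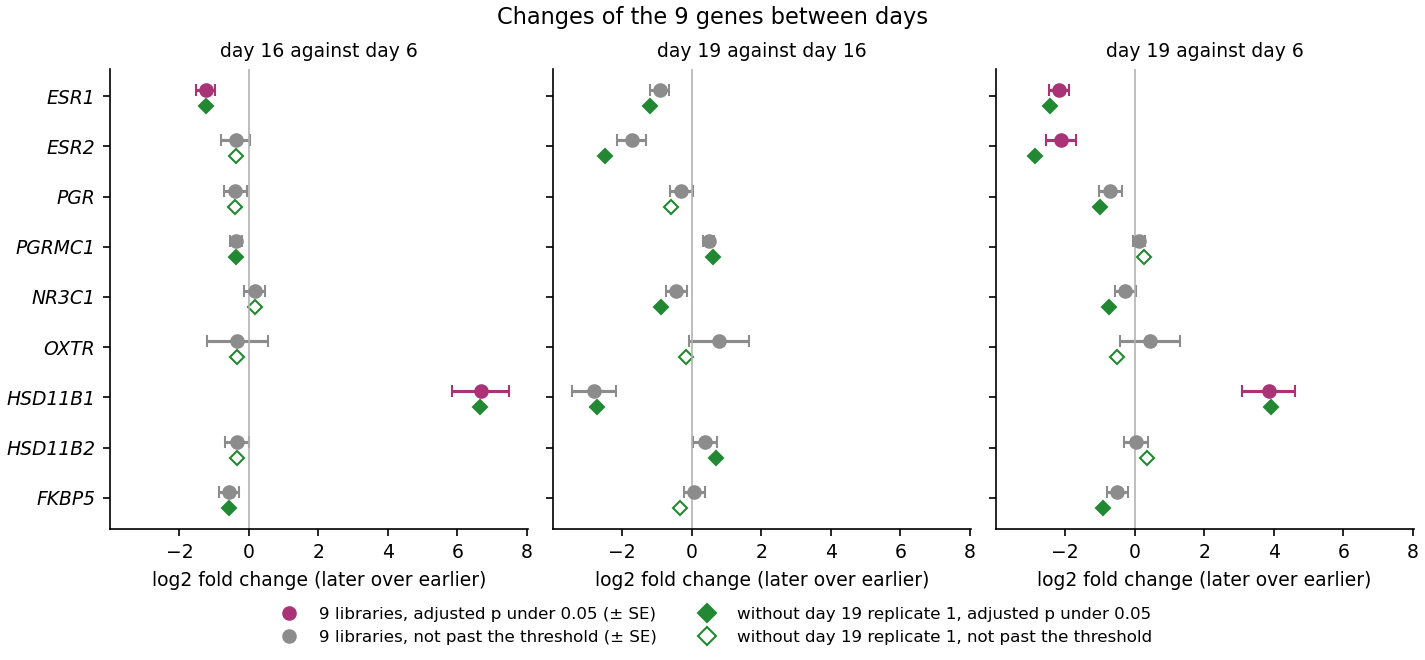
Log2 fold change (horizontal axis, later over earlier day) of each gene in the 3 comparisons; circles are the fit to 9 libraries with its SE and diamonds the fit without day 19 replicate 1, coloured or filled where the adjusted p was under 0.05. HSD11B1 at 6.67 and 3.85 and ESR1 at -1.24 and -2.17 pass in both fits against day 6, and OXTR changes side of 0 in both day 19 comparisons.

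The wider steroid and oxytocin pathways were read from 8 lists with 153 genes besides the 9, of which 121 were tested. The lists were compiled from textbook knowledge with earlier results of these data known, and some of their genes (LGALS15, GRP, IHH and PDZK1 among them) were already known to move here, so their counts are a description. Over all tested genes 8.86% were called at day 16 against day 6, 1.2% at day 19 against day 16 and 22.9% at day 19 against day 6 (20.4%, 44.7% and 54.2% without day 19 replicate 1); a list count near these shares is no result about the list. Among 12 tested other steroid receptors, 1 was called at day 16 against day 6 and 5 at day 19 against day 6 (2 higher and 3 lower; 2 called, both lower, without any 1 library except day 19 replicate 1, where it was 7). The day 16 count was 3, all lower, without day 19 replicate 1 and with DESeq2 or voom. PAQR7, a membrane progestin receptor, fell from 22.8 ± 6.09 CPM to 6.80 ± 1.02 CPM by day 16 and 4.56 ± 0.918 CPM by day 19 (SD, n = 3 each; adjusted p = 0.00365 and 0.00061). PAQR8, a related membrane receptor, fell by 1.51 on the log2 scale by day 19, a call that held in 1 of the 9 fits that leave out a library. NR3C2, the mineralocorticoid receptor that HSD11B2 shields from cortisol, was named after its values were seen and passed in no comparison with 9 libraries, at 4.76 to 13.3 CPM.

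Of 14 chaperones and immunophilins that load steroid receptors, 1 was called at day 16 (lower) and 4 at day 19 (3 higher, 1 lower), both against day 6. Without 1 library the first count was 0 for each library of days 6 and 16, 1 without day 19 replicate 2 or 3 and 5 (3 higher, 2 lower) without day 19 replicate 1, as in DESeq2 and voom; the second was 2 or 3, and 12 without day 19 replicate 1. FKBP4, the immunophilin that acts opposite to FKBP5 on the receptors, fell from 530 ± 27.3 CPM at day 6 to 273 ± 27.8 at day 16 (SD, n = 3 each; log2 fold change -0.96, SE 0.23, adjusted p = 0.0301). That call was lost without any 1 library of day 6 or day 16. PTGES3, the p23 co-chaperone, and BAG1, a co-chaperone of HSP70, were higher at day 19 than at day 6 at log2 fold changes of 0.83 (SE 0.16) and 1.18 (SE 0.19), and both calls held in all 9 fits that leave out a library; DNAJB1, an HSP40 protein, was higher by 0.90 (SE 0.26) and held in 3 of 9. Of 14 receptor coregulators edgeR called 0 in each comparison with 9 libraries; in the order above, 1, 3 and 1 had a p under 0.05 before adjustment, while by DESeq2 the calls were 0, 0 and 1. Without day 19 replicate 1 the coregulator counts were 3, 12 and 11, of which 2, 10 and 9 were lower, with list medians of 0.10, -0.83 and -0.61. Voom called 4, 12 and 10, of which 3, 10 and 9 were lower. Voom also called 3811, 7354 and 9433 of all 16098 genes in these comparisons.

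Genes that oestrogen induces did not move as 1 group. Of 12 tested, 2 were lower at day 16 than at day 6, and at day 19 against day 6 there were 3 higher and 4 lower; the list's median log2 fold change was -0.10 and -0.17. Without 1 library the first count was 1 for each library of days 6 and 16 and 8 (4 higher, 4 lower) without day 19 replicate 1, as with voom or only the libraries of the 2 days, while DESeq2 called 3 higher and 3 lower. The second was 4 without day 6 replicate 3 and otherwise 5 to 8. GREB1, a cofactor of ESR1 and one of its best known targets, stood at 116, 90.5 and 94.3 CPM at day 6, 52.8, 54.4 and 57.1 at day 16, and 9.23, 12.9 and 15.9 at day 19. It had the same order of days as ESR1, with no overlap, and was called in all 3 comparisons, at log2 fold changes of -0.87 (SE 0.21, adjusted p = 0.0295), -2.11 (SE 0.22, adjusted p = 0.0154) and -2.99 (SE 0.22, adjusted p = 8.64e-05). The first 2 of these calls held in 3 and 5 of the 9 fits that leave out a library and the last in all 9. PDZK1, a scaffold of membrane transporters, had 307 to 418 CPM at day 6 and at most 8.004 CPM later. CXCL12, a chemokine, went the other way, from 79.4 ± 10.7 CPM at day 6 to 228 ± 63.6 at day 19 (SD, n = 3 each; log2 fold change 1.52, SE 0.23, adjusted p = 0.00208).

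Among 15 tested genes that progesterone induces, 4 rose and 1 fell by day 16 and 6 rose and 1 fell by day 19 against day 6, with a list median of 1.58 and 1.60. Without 1 library the first total of 5 was 3 to 5, and 9 without day 19 replicate 1; the second total of 7 was 7 to 9. IHH, the epithelial hedgehog ligand induced early by progesterone, fell by 4.12 on the log2 scale (SE 0.38) by day 16. LGALS15, a galectin secreted by the ruminant uterus, and GRP, gastrin-releasing peptide, rose from at most 0.835 and 9.37 CPM in any day 6 library to at least 831 and 807 CPM in every later one. Reads of LGALS15 may be shared with the closely related LGALS16, so its values are uncertain to that extent. HOXA11, a homeobox regulator of the endometrium, was the gene called from day 16 to day 19 (log2 fold change 1.39, SE 0.25, adjusted p = 0.0451), a call that held in 1 of the 9 fits that leave out a library, the one without day 19 replicate 1.

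Of 16 genes that glucocorticoid induces, edgeR with TMM called 3 at day 16 and 5 at day 19, both against day 6 and all higher, with list medians of 0.48 and 0.34. DESeq2 called 5 higher and 1 lower at day 16 and 6 higher and 1 lower at day 19, and voom 8 and 2, then 7 and 4; upper quartile scaling gave 4 higher and 1 lower at day 19. Without 1 library the first count was 1 to 5 and the second 1 to 5, with the lowest values without day 6 replicates 2 and 3 for the first and day 6 replicate 2 for the second; without day 19 replicate 1 they were 8 and 9, of which 2 and 3 were lower. PDK4, a kinase that restrains glucose oxidation, rose by 1.99 (SE 0.40) and SGK1, a kinase of ion transport, by 1.41 (SE 0.31), each by day 16 and each called in 5 of the 9 fits that leave out a library. ERRFI1, a brake on epidermal growth factor receptors, was higher at day 19 than at day 6 at 1.73 (SE 0.40; 7 of 9 fits). These genes also respond to other signals. TSC22D3, PER1, ZBTB16 and KLF9, often used as readouts of NR3C1, were named after their values were seen. They are only described here, and their relation to the list was not tested. TSC22D3 stood at 361 ± 29.6, 225 ± 60.3 and 387 ± 101 CPM at days 6, 16 and 19 (SD, n = 3 each). Its day 19 mean covers a split, with 271 CPM in replicate 1 and 446 and 445 CPM in replicates 2 and 3. The day 6 libraries held 336 to 394 CPM. PER1 stood at 94.6 ± 9.20, 100 ± 7.93 and 105 ± 8.90 CPM (SD, n = 3 each). Adjusted p-values of both genes were 0.128 to 0.848 in edgeR with 9 libraries. ZBTB16 and KLF9 split at day 19 as NR3C1 did, with 116 and 53.2 CPM in replicate 1, 10.6 and 6.69 CPM in replicate 2 and 12.9 and 4.13 CPM in replicate 3. ZBTB16 held 54.1 to 61.9 CPM on day 6 and 85.6 to 106 CPM on day 16, without overlap. KLF9 held 29.0 to 32.2 CPM on day 6 and 24.9 to 46.0 CPM on day 16, which overlapped.

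**Figure D4:**
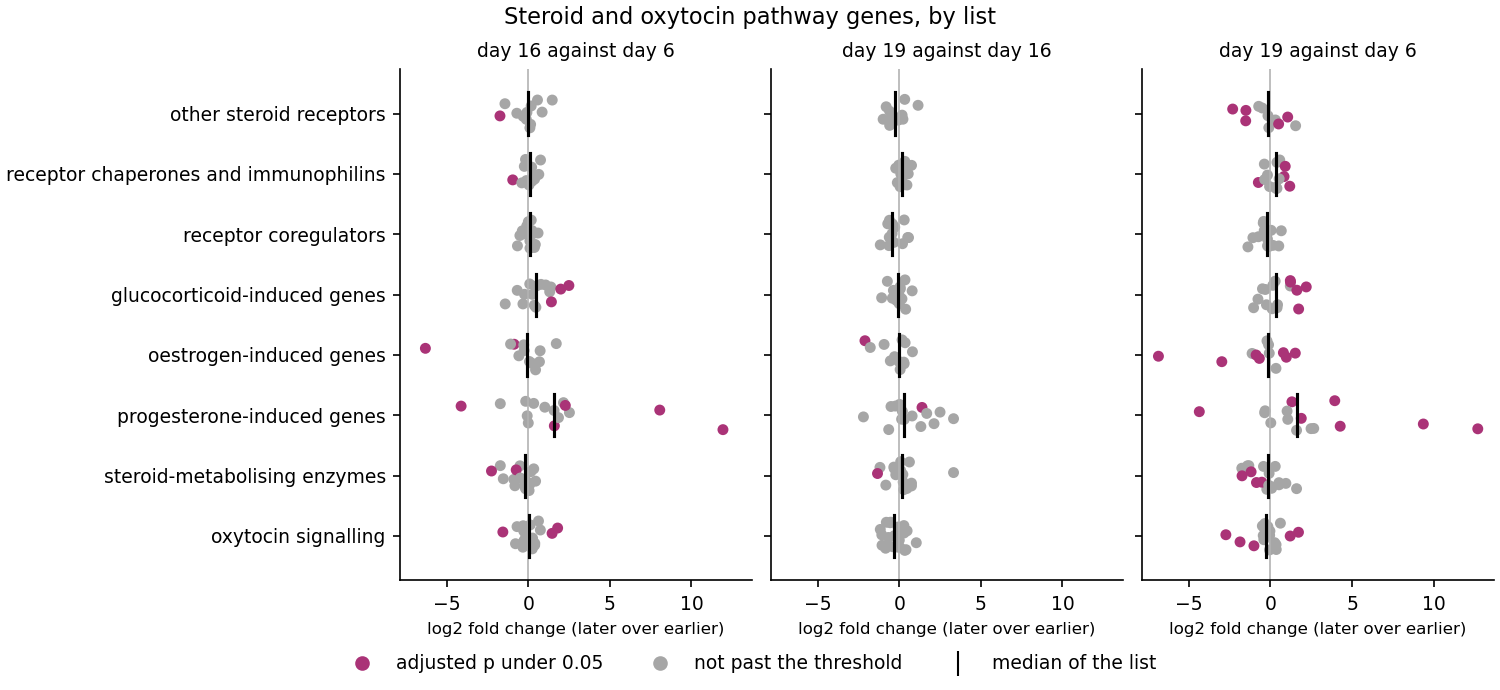
Log2 fold change (horizontal axis, later over earlier day) of each tested gene of the 8 lists in the 3 comparisons, with the vertical bar at the list median; coloured points had an adjusted p under 0.05 in edgeR with 9 libraries. In this fit the called glucocorticoid-induced genes lie to the right of 0 (3 at day 16 and 5 at day 19 against day 6), and called oestrogen-induced genes lie on both sides at day 19.

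Of 18 steroid-metabolising enzymes edgeR called 2 at day 16 and 4 at day 19 against day 6, all lower, which is near the share over all genes; the list medians were -0.22 and -0.17. At day 19 DESeq2 called 1 higher and 5 lower, and voom 4 higher and 6 lower. The counts were 1 and 2 without any 1 library of day 6 or day 16, and 4 (all lower) and 9 (3 higher) without day 19 replicate 1. Without day 19 replicate 2 or 3 they were 2 and 2. AKR1B1, an aldo-keto reductase that also makes prostaglandin F2 alpha, fell by 2.26 on the log2 scale (SE 0.31) by day 16 and was lower by a log2 fold change of -1.74 (SE 0.30) at day 19. CYB5A, cytochrome b5, held 29.2 to 31.8 CPM on day 6, 32.6 to 36.6 CPM on day 16 and 12.5 to 14.3 CPM on day 19. From day 16 to day 19 its log2 fold change was -1.34 (SE 0.17, adjusted p = 0.0215). That call held in 2 of the 9 fits that leave out a library, and the list had 0 calls between these days with the replicate block; CYB5A against day 6 was called in all 9. HSD17B12, which reduces oestrone and long-chain fatty acyl groups, was lower at day 16 at -0.74 (SE 0.17; called in 3 of 9 fits that leave out a library), and HSD17B7, which acts in oestrogen and cholesterol synthesis, was lower at day 19 than at day 6 at -0.86 (SE 0.27; called in 1 of 9).

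Downstream of OXTR, 2 genes were higher and 1 lower of 21 at day 16, and 2 higher and 3 lower at day 19, both against day 6. The totals of 3 and 5 were 1 without day 6 replicates 2 or 3 or day 16 replicates 1 or 2, and 3 without any 1 day 6 library; without day 19 replicate 1 they were 5 and 14. PLCB1, the phospholipase that turns the receptor's G protein signal into inositol trisphosphate, fell from 134 ± 7.34 CPM on day 6 to 45.4 ± 7.68 CPM by day 16 and 20.1 ± 10.4 CPM by day 19 (SD, n = 3 each; adjusted p = 0.014 and 0.000671; called in 5 and 9 of the 9 fits that leave out a library). ITPR3, a receptor that inositol trisphosphate opens to release calcium, was lower at day 19 than at day 6 at a log2 fold change of -1.87 (SE 0.22, adjusted p = 0.000627). PLA2G4A, the phospholipase that frees arachidonic acid for prostaglandins, was higher at day 16 at 1.46 (SE 0.26, adjusted p = 0.00797), as was CD38, an enzyme of calcium-mobilising nucleotides, at 1.80 (SE 0.45, adjusted p = 0.0359; called in 4 of those 9 fits). GNAQ, the G protein subunit that couples OXTR to PLCB1, was named after its values were seen and passed in no comparison, at 85.2 to 126 CPM.

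For the called genes, the genes with the most similar pattern were taken as those with the smallest root mean square difference of log2 CPM, centred per gene, over the 9 libraries, among 10011 other genes that have a true symbol and a mean log2 CPM of 3 or more. Nearest to ESR1 were NR4A2, an orphan nuclear receptor (difference 0.209), HLCS, which attaches biotin to carboxylases (0.237), and TLN2, a talin (0.25); NR4A2 stood at 19.7 ± 0.867, 7.45 ± 0.835 and 5.08 ± 2.10 CPM at days 6, 16 and 19. Nearest to ESR2 were STXBP4 (0.18), PCYOX1 (0.193) and CELSR2 (0.231), of which PCYOX1, a prenylcysteine oxidase, went from 58.7 ± 7.08 and 47.3 ± 7.31 to 14.1 ± 11.6 CPM. HSD11B1 had no near match by this measure. The closest were EMB, a chaperone of lactate transporters, at 0.817, the ammonium transporter RHBG at 0.988 and BCL2L15, of the BCL2 family, at 1.04. The measure is not scaled to the size of a gene's changes or to counting noise, and HSD11B1 had 13, 0 and 9 counts on day 6. EMB had the same order of days, with 5.11 ± 3.77, 152 ± 59.5 and 30.6 ± 15.4 CPM (SD, n = 3 each). A small difference here means only that 2 genes followed a like course over these libraries.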

How the data were processed

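Values are unnormalized gene-level counts as the authors deposited them, in 1 table with a column per library. How reads were aligned and counted, on which build, and whether strand was used is not given in the sources used here. Overlapping or closely similar genes may share reads. Per the labels' protocols, RNA was extracted with Trizol, selected on Dynabeads for poly(A), cut with RNase III and ligated to adaptors. Members and lists were chosen with earlier results of these data known.

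The counts were tested in edgeR 4.0.16 (R 4.3.3) with TMM scaling, filterByExpr on the day and a robust quasi-likelihood fit to all 9 libraries with day as its only term; 16098 genes, including all 9 members, were tested. SE is the absolute log2 fold change over the square root of F. The recovery of known changes was checked on simulated counts, drawn with the same spread for every gene and with no library set apart. That check therefore does not cover a library that differs as day 19 replicate 1 does. Libraries hold 8712751 to 11074693 counts, and the common biological coefficient of variation was 0.318. Libraries of a day differed by more than sampling noise (chi-square over its degrees of freedom of 10.4 or more), so none was taken for a repeat deposit of another; this says nothing of whether they share an animal.

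Named from each list were at most 3 called genes per comparison, by size of change, among genes whose mean log2 CPM was 1 or more; other genes are said to be named after their values were seen. Some genes that this rule picks are not reported here. The alternatives were DESeq2 1.42.0, limma 3.58.1 voom with sample weights, RLE and upper quartile scaling, no filter, a filter of 1 CPM in 6 libraries, no robust estimation, only the libraries of the 2 days, a replicate block, and each library left out. Leaving a library out of the pair shares was added after seeing the data, and its results are not reported here.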

Additional observations from a re-analysis of the deposited data

How the results depend on the processing

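The calls of ESR1, ESR2 and HSD11B1 between day 6 and day 19, and of HSD11B1 between day 6 and day 16, held in all 18 alternatives. The number of the 9 genes called between day 6 and day 16, 2 in the report, was 1 with the replicate block, 3 with only the libraries of the 2 days (FKBP5 added) and 4 with voom, and 1 to 4 with 1 library left out. Between day 16 and day 19 it was 0, and became 3 with DESeq2, 6 with voom and 0 to 6 with 1 library left out. Between day 6 and day 19 it was 3, and became 6 with voom and 3 to 6 with 1 library left out. For any difference among days it was 3, and became 8 with voom and 2 to 6. Calls over all genes shifted too: in the order of these tests voom called 3811, 7354, 9433 and 10629 of 16098 genes. Between day 16 and day 19 the replicate block and the fit to only the libraries of the 2 days called 0 genes of the whole table. A count of 0 of the 9 genes in those fits is thus no result about them. The cause of these shifts was not tested. All the highest leave-one-out counts came without day 19 replicate 1. Of 486 single values 439 kept direction and side of the threshold, 26 passed newly, 6 no longer passed (all ESR1 between day 6 and day 16) and 15 changed sign, none of them called.

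Sign changes, as log2 fold changes, touched 4 genes. With 1 library left out, OXTR ranged from -1.95 to 0.39 at day 16 against day 6 (0.39, 0.075 and 0.11 without day 6 replicate 2, day 16 replicate 1 and day 16 replicate 3), from -0.15 to 2.39 at day 19 against day 16 and from -0.50 to 1.17 at day 19 against day 6, both negative only without day 19 replicate 1. Voom gave OXTR -0.24 at day 19 against day 6. HSD11B2 at day 19 against day 6 ranged from -0.28 to 0.36, below 0 with day 6 replicate 2 or 3 or day 19 replicate 2 or 3 left out, and was -0.022 with upper quartile scaling. FKBP5 at day 19 against day 16 ranged from -0.34 to 0.31, below 0 when day 16 replicate 3 or day 19 replicate 1 was absent, and was -0.34 with voom. PGR at day 19 against day 16 ranged from -0.59 to 0.037, the latter without day 16 replicate 2. Deviations of same-numbered libraries from their day means correlated at -0.164 to 0.153. With 3 libraries per day, whose deviations sum to 0, this check cannot exclude that replicate numbers pair libraries. With the replicate block in edgeR ESR1 at day 16 against day 6 had an adjusted p of 0.0556, while no other call of the 9 genes changed. Depth limits OXTR (16 to 172 counts per library), HSD11B1 on day 6 (0 to 13) and ESR2 in day 19 replicates 2 and 3 (37 each).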
